A study of Mus musculus with 12 samples.

Results

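The 40 genes described here carry mouse cells through division. They comprise 2 proliferation markers, 4 genes of the mitotic cyclins and their kinase, 5 G1 cyclins, 3 kinases that work with G1 and S phase cyclins, 2 inhibitors of these kinases, 7 genes of the kinetochore and its checkpoint, 6 of the spindle and its kinases, 5 of cytokinesis, 2 of condensin, and 4 that serve S phase or control transcription. They were chosen by symbol from a list of cell cycle genes, with earlier results of these data known. All 40 were present among the 14801 genes of the deposited table, and all 40 passed the filter on low values, which left 13663 genes for the test.

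The libraries measure transcripts of cultured cerebrocortical cells, taken from mouse fetuses on gestational day 17.5. In the T3 group, 6 cultures had received 10 nM triiodothyronine (T3), the active thyroid hormone, for 24 h. In the no T3 group, 6 parallel cultures had received none, and each of 6 fetuses, numbered mouse 1 to 6, gave 1 culture to each group. All cultures were 9 days old when the medium supplement B27 was taken away, 24 h before the hormone step, and all are titled wild type. The cultures mix neurons with glia and other cells of the cortex. In such bulk RNA, fewer dividing cells and less of these transcripts per dividing cell cannot be told apart.

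Cyclins are regulatory subunits that switch on cyclin-dependent kinases, D and E cyclins before DNA synthesis and A and B cyclins towards mitosis. In mitosis, condensin compacts the chromosomes, the kinetochore ties each centromere to spindle microtubules, the checkpoint delays separation until every kinetochore is attached, and cytokinesis then divides the cell body. Most of the mitotic genes are transcribed in late S, G2 and M phase, under E2F, Myb-MuvB and Foxm1 complexes. Cortical neurons have left the cycle, while progenitors and glia still divide around birth; D cyclins, Cdk4 and the inhibitors Cdkn1a and Cdkn1b are also made by cells that do not divide.

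The transcription of many mitotic genes depends on a promoter element called CHR and on CCAAT boxes near the start site. The promoters of 5 mitotic genes are therefore shown. Nuf2, Bub1 and Mki67 passed the test described below with all mice or without mouse 4, while Cdk1 and Top2a passed it in neither case. Each sequence covers the 120 bases before the RefSeq start on GRCm38.p6, all on the minus strand, written 5′ to 3′ with CHR (TTTGAA or TTCGAA) and CCAAT matches on either strand in capitals. The windows are chr1:169531465-169531584 for Nuf2, chr2:127831860-127831979 for Bub1, chr7:135716380-135716499 for Mki67, chr10:69352913-69353032 for Cdk1 and chr11:99024190-99024309 for Top2a.
Nuf2: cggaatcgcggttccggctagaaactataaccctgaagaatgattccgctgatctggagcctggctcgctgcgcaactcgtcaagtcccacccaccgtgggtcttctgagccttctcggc
Bub1: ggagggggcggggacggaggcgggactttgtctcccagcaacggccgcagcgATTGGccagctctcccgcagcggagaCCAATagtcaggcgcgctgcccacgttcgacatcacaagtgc
Mki67: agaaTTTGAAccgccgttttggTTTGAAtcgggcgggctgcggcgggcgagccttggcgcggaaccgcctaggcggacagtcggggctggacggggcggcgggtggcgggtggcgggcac
Cdk1: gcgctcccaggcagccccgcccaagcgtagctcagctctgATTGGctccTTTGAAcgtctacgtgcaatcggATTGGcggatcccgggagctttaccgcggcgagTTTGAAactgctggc
Top2a: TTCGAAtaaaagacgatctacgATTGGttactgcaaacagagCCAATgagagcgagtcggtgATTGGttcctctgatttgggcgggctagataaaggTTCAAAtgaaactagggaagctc
The Cdk1 window holds 2 CCAAT and 2 CHR matches, the nearest CHR beginning at -15 from the start. The Top2a window holds 3 CCAAT and 2 CHR matches, and Mki67 holds 2 CHR matches, at -116 and -98. Bub1 holds 2 CCAAT matches, at -68 and -42, and no CHR, while in the Nuf2 window neither motif was found. Over the 250 bases before the start, 31 of the 40 genes had a RefSeq promoter entry, and 10 of these 31 held a CHR, 21 a CCAAT box and 10 both. Among all 32851 promoter windows of the same length, 17.1% held a CHR, 33.8% a CCAAT box and 6.02% both. An E2F site, searched as TTTCCCGC, TTTGGCGC, TTTCGCGC or TTTGCCGC, was found for Cdk1 and Cdk2 of the 31 and in 1.86% of all windows. The counts of the 31 are by gene, with a match in any of its windows, and 4 genes had 2 windows. The shares of all windows are by single window, so the units differ.

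Recovered depth was 9273960 ± 1421889 reads per T3 library and 7008618 ± 951368 per no T3 library (SD, n = 6 each). Levels are in CPM, which scales each gene's reads to the size of its library, here after the TMM correction for differences in RNA composition. Markers of neurons were high in every library, with sums over 6 genes of 6145 to 7545 CPM in T3 cultures and 6538 to 8539 CPM in no T3 cultures, and all 8 astrocyte and 8 of 9 neural progenitor markers were listed. As a check of the treatment, Hr, a corepressor and textbook T3 target, averaged 46.5 ± 2.92 CPM with T3 and 5.49 ± 1.24 CPM without (SD, n = 6 each). The no T3 library of mouse 4 stood apart from the other 11. It held transcripts of heart muscle, among them Myh7 at 705.8 CPM, against at most 3.81 CPM in any other library, and of connective tissue, among them Col3a1 at 110.6 CPM, against at most 6.74 CPM. The limma changes of the 40 genes are therefore given with all 6 mice and also without mouse 4.

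Transcript levels of 2 of the 40 genes, Bub1 and Nuf2, both of the kinetochore and its checkpoint, fell with T3, and none rose. The test was limma on log2(CPM + 0.5) with the mouse as a block, and a gene was called where its p, adjusted by the Benjamini-Hochberg method over all genes tested, was under 0.05. In the same fit 2.14% of all genes were called lower and 3.37% higher, so a count of 2 lower genes in 40 lies about 1 gene above the background share. At an unadjusted p under 0.05, 15 of the 40 genes were lower and 0 higher, against 7.79% and 9.68% of all genes. On the recovered reads, edgeR called Bub1, Nuf2 and Ccna2 lower and none of the 40 higher, with 2.32% of all genes called lower and 3.4% higher. DESeq2 called the same 3 genes, with 1.6% of all genes called lower and 2.28% higher. Without mouse 4, limma called Nuf2 and Mki67 lower and none higher, with 1.68% of all genes called lower and 2.49% higher. At an unadjusted p under 0.05, 11 of the 40 were then lower and 0 higher, against 7.28% of all genes lower. Leaving out mouse 1 in place of mouse 4 gave 6 lower calls among the 40, the most under any alternative tried. Of all 13701 genes tested without mouse 1, 328 were called lower, against 293 of 13663 with all mice.

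Small negative changes were spread over nearly the whole list. The fitted log2 change of T3 over no T3 was below 0 for 38 of the 40 genes (95%), against 48.9% of all genes, and its median was -0.26 over the 40 and 0.0031 over all genes tested. Without mouse 4 it was below 0 for 34 of the 40 (85%), against 48.7%, and the median was -0.12, against 0.0035 over all genes. The 30 genes of mitosis, S phase and their transcription were all below 0, with a median of -0.31, and without mouse 4 27 of them were, with a median of -0.20. For the 10 G1 cyclins, kinases and inhibitors the median was -0.08, and -0.01 without mouse 4. These genes share cells and libraries and are no replicates of the treatment. They were also chosen with earlier results of these data known, so these shares are a description only.

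**Figure D1:**
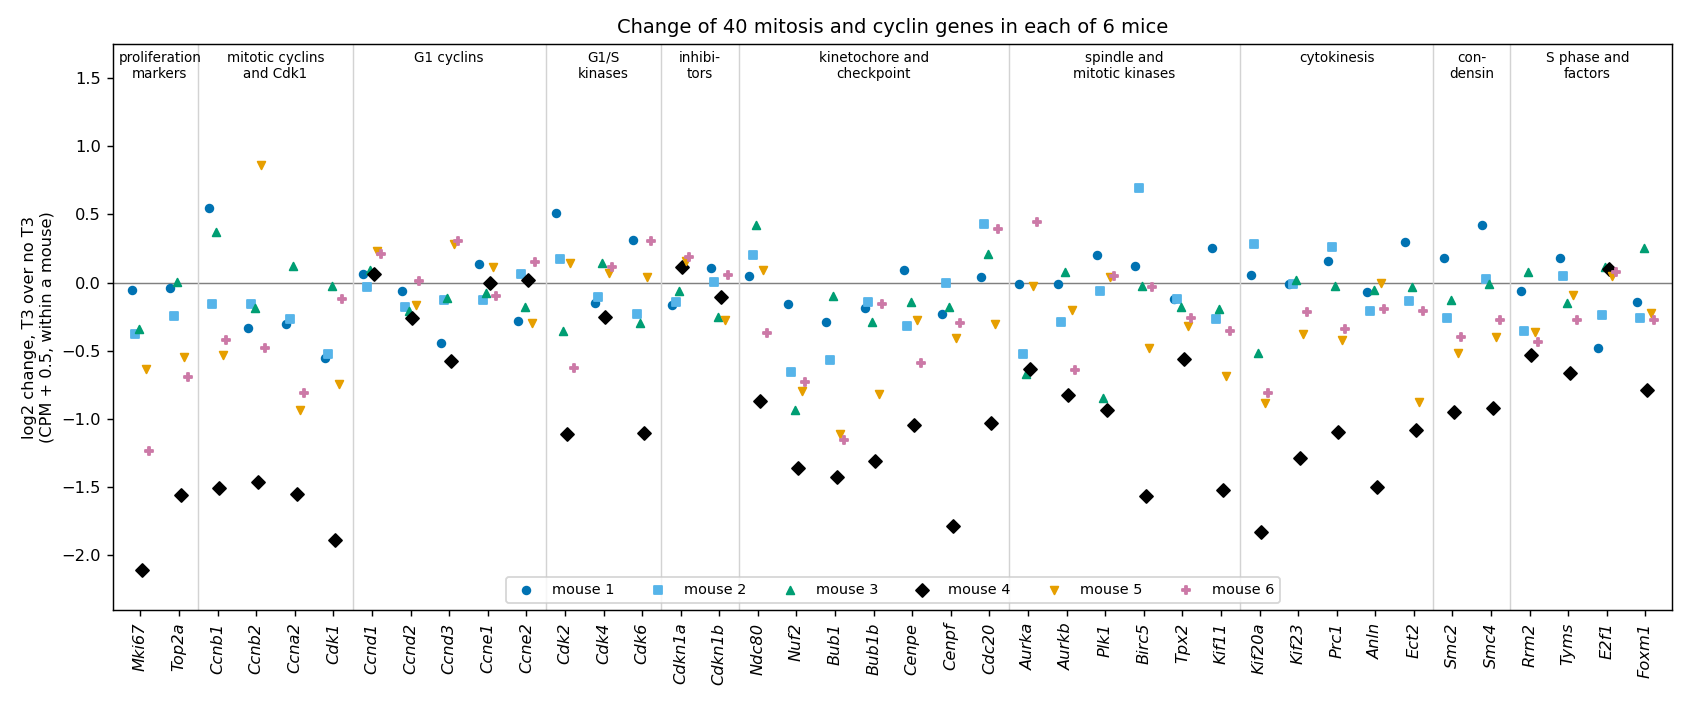
The log2 change (T3 over no T3, of CPM + 0.5) of each of the 40 genes, grouped by role along the x axis, with 1 point per mouse. The black diamonds of mouse 4 are the lowest point for 33 of the 40 genes, and most points of the G1 cyclins and inhibitors lie near 0. The same count over all genes was not taken.

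The mice differed in how far the genes moved. The median change over the 40 genes was -0.01 in mouse 1, -0.15 in mouse 2, -0.09 in mouse 3, -1.04 in mouse 4, -0.30 in mouse 5 and -0.27 in mouse 6. Mouse 4 thus stood far below the rest and mouse 1 at about 0. Of the 40 genes, 8 were lower with T3 in 6 of 6 mice, against 4.98% of all genes, and 8 were lower in 5 of 5 mice without mouse 4, against 7.03%. Bub1 was the 1 gene of the 40 with every T3 library below every no T3 library, with and without mouse 4; among all genes 0.622% did so, and 1.02% without mouse 4.

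Among the kinetochore and checkpoint genes, Bub1 encodes a checkpoint kinase that recruits other checkpoint proteins to unattached kinetochores. Bub1 (ENSMUSG00000027379, chr2:127801122-127831865, GRCm38, minus strand) stood at 2.99, 3.19, 3.00, 3.21, 1.73 and 1.68 CPM in the T3 cultures of mice 1 to 6, against 3.77, 4.98, 3.25, 9.46, 4.32 and 4.37 CPM in their no T3 cultures. The groups did not overlap, but the highest T3 value and the lowest no T3 value, from different mice, were nearly equal, and the no T3 library of mouse 4 lay far above the next. Bub1 fell by 0.78 on the log2 scale with T3 (SE 0.178, limma adjusted p = 0.0105), to 2.63 ± 0.724 CPM, against 5.02 ± 2.25 CPM without T3 (SD, n = 6 each). Without mouse 4 the log2 change was -0.65 (SE 0.183), and the call was lost with an adjusted p of 0.0554. The counts behind these values were low, 17 to 51 reads per library.

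Nuf2 is a subunit of the Ndc80 complex, the main microtubule binder of the kinetochore. Nuf2 (ENSMUSG00000026683, chr1:169497934-169531464, GRCm38, minus strand) had 4.42, 3.07, 2.42, 2.52, 3.28 and 1.58 CPM in T3 cultures of mice 1 to 6, against 4.98, 5.13, 5.08, 7.24, 6.07 and 2.95 CPM in no T3 cultures, from 16 to 45 reads per library. It was lower with T3 in 6 of 6 mice, while the groups overlapped at the no T3 culture of mouse 6, which lay below the T3 cultures of mice 1, 2 and 5. Nuf2 fell by 0.77 on the log2 scale (SE 0.159, limma adjusted p = 0.00454), to 2.88 ± 0.957 CPM with T3, against 5.24 ± 1.42 CPM without (SD, n = 6 each). Without mouse 4 it fell by 0.66 (SE 0.159, adjusted p = 0.0227). Nuf2 was the 1 gene of the 40 called both with and without mouse 4. With the mice not entered as a block, neither Nuf2 (adjusted p = 0.11) nor Bub1 (adjusted p = 0.138) was called. Its partner Ndc80, which pairs with Nuf2 at the microtubule-binding end, had a log2 change of -0.076 (95% interval -0.44 to 0.29) and of 0.082 without mouse 4 (-0.27 to 0.44), both wide enough to hold changes of either sign.

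None of the other 4 kinetochore genes passed the test with all mice. Bub1b, which encodes the checkpoint protein BubR1, ranged over 3.01 to 4.98 CPM in T3 cultures, against 4.37 to 5.79 CPM in 5 no T3 cultures and 12.6 CPM in that of mouse 4. Its log2 change was -0.48 (limma adjusted p = 0.0840), and -0.32 without mouse 4 (adjusted p = 0.294). Cenpe, a kinesin that moves chromosomes to the spindle equator, had -0.38 (adjusted p = 0.104) and -0.25 without mouse 4, and it was called only when mouse 1 was left out (adjusted p = 0.0346). Cenpf, a large protein of the outer kinetochore, had -0.48 (adjusted p = 0.245) and -0.22 without mouse 4. Cdc20, the activator of the anaphase-promoting complex that the checkpoint holds back, had -0.044 (adjusted p = 0.939) and changed sign, to 0.15, without mouse 4. Within the kinetochore group the median log2 change was -0.48 with all mice and -0.25 without mouse 4.

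**Figure D2:**
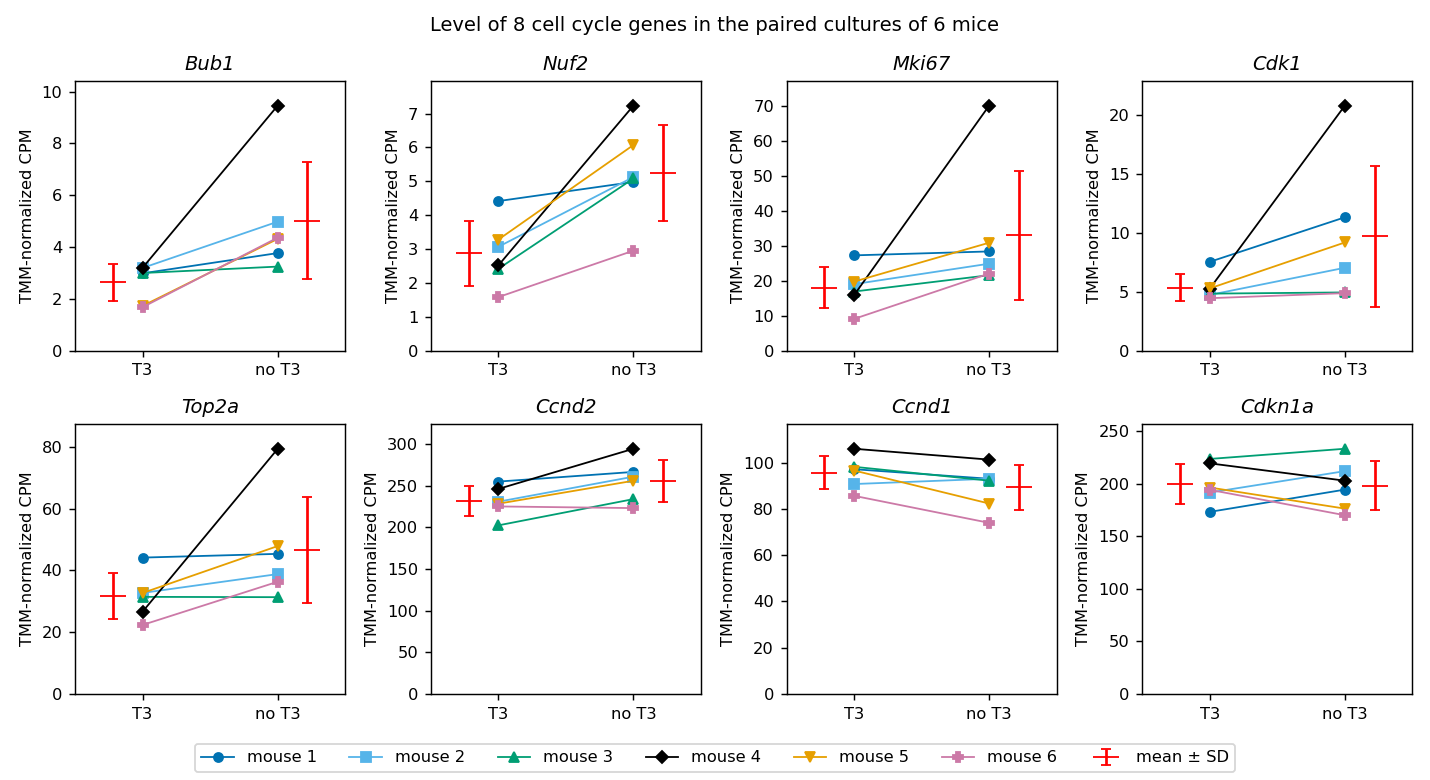
TMM-normalized CPM of 8 of the genes (y axis from 0) in T3 and no T3 cultures, with a line joining the cultures of 1 mouse and red bars for mean ± SD (n = 6). Bub1 shows no overlap between the groups, the no T3 library of mouse 4 lies above all others for the 5 mitotic genes, and for Ccnd1 and Cdkn1a the T3 culture of mouse 4 is the higher one of that mouse.

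Mki67 and Top2a are the usual markers of cycling cells: the first coats mitotic chromosomes, and the second encodes the topoisomerase that untangles them. Mki67 (ENSMUSG00000031004, chr7:135689784-135716361, GRCm38, minus strand) had 27.3, 19.0, 16.9, 15.9, 19.8 and 9.10 CPM in T3 cultures of mice 1 to 6, against 28.4, 24.9, 21.6, 70.1, 30.9 and 22.1 CPM in no T3 cultures. It was lower with T3 in 6 of 6 mice, barely so in mouse 1, and the no T3 library of mouse 4 was at 2.27 times the next highest library. With all mice the log2 change was -0.79 (SE 0.297, limma adjusted p = 0.257) and Mki67 was not called. Without mouse 4 it fell by 0.53 (SE 0.124, adjusted p = 0.0181), to 18.4 ± 6.51 CPM in T3 cultures, against 25.6 ± 4.03 CPM in no T3 cultures (SD, n = 5 each). Both the change and its SE were smaller without that mouse.

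Top2a (chr11:98992943-99024189, GRCm38, minus strand) did not pass the test. It had 44.2, 32.7, 31.4, 26.7, 32.7 and 22.4 CPM in T3 cultures of mice 1 to 6, against 45.4, 38.8, 31.3, 79.4, 47.9 and 36.3 CPM in no T3 cultures. The groups overlapped, and the cultures of mouse 1 and of mouse 3 hardly differed. The log2 change was -0.51 (SE 0.221, limma adjusted p = 0.316), and -0.30 (SE 0.0949, adjusted p = 0.0900) without mouse 4.

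Cdk1, the kinase that drives entry into mitosis, had 7.53, 4.73, 4.84, 5.27, 5.29 and 4.45 CPM in T3 cultures of mice 1 to 6, against 11.3, 7.03, 4.94, 20.8, 9.18 and 4.88 CPM in no T3 cultures. It was lower with T3 in 6 of 6 mice, but by very little in mice 3 and 6, and the groups overlapped. Its log2 change was -0.64 (SE 0.194, limma adjusted p = 0.0757), and -0.39 (adjusted p = 0.143) without mouse 4. Ccna2, the A cyclin of S phase and early mitosis, ranged over 4.25 to 8.93 CPM in T3 cultures, against 7.34 to 27.1 CPM in no T3 cultures, the highest in mouse 4. Its log2 change of -0.62 just missed the threshold (limma adjusted p = 0.0525), it was called by edgeR (adjusted p = 0.0489) and by DESeq2 (adjusted p = 0.031), and without mouse 4 limma gave -0.44 (adjusted p = 0.108) and without mouse 3 a call (adjusted p = 0.0112). Of its exon bases, 12.5% overlap Exosc9 on the opposite strand, whose reads cannot be separated here because the library kit did not mark strand.

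The B cyclins, the partners of Cdk1 in mitosis, were not called. Ccnb1 had 3.77, 1.79, 2.71, 1.83, 2.64 and 2.37 CPM in T3 cultures of mice 1 to 6, against 2.42, 2.05, 1.98, 6.12, 4.05 and 3.34 CPM in no T3 cultures. In mice 1 and 3 the T3 culture was the higher one, and in the other 4 mice the lower one. The log2 change was -0.28 (limma adjusted p = 0.567) with all mice and -0.038 (95% interval -0.44 to 0.36) without mouse 4, so that nearly all of it rested on that mouse. For Ccnb2 the values were -0.29 (adjusted p = 0.581) and -0.058 (95% interval -0.52 to 0.40).

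None of the 6 genes of the spindle and its kinases passed the test with all mice, and all 6 changes were below 0. Kif11, the kinesin that pushes the spindle poles apart, had the most negative, at -0.46 (limma adjusted p = 0.196) and -0.25 without mouse 4, and it was called without mouse 1 (adjusted p = 0.0351). Tpx2, which nucleates spindle microtubules and activates Aurka, had -0.26 (adjusted p = 0.0888) and -0.20, the least altered of the 6 by leaving mouse 4 out. The mitotic kinases Aurka, Aurkb and Plk1 had -0.24, -0.31 and -0.26, with adjusted p of 0.510, 0.329 and 0.522, and -0.16, -0.21 and -0.12 without mouse 4. Birc5, or survivin, which works with Aurkb at the centromere, had -0.22 (adjusted p = 0.689) and 0.055 without mouse 4, a change of sign.

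The 5 cytokinesis genes also lay below 0, with none called with all mice. Kif20a, a kinesin of the spindle midzone, had a log2 change of -0.62 (limma adjusted p = 0.133) and -0.37 without mouse 4, and was called without mouse 2 (adjusted p = 0.0286); 29.3% of its exon bases overlap Cdc23 on the other strand. Anln, an actin-binding scaffold of the contractile ring, had -0.34 and -0.10, and Ect2, which activates RhoA at the ring, had -0.34 and -0.19. Kif23, a subunit of centralspindlin, had -0.31 and -0.12, and Prc1, which bundles the midzone microtubules, had -0.24 and -0.073; adjusted p for these 4 genes with all mice ran from 0.256 to 0.424. Of Prc1's exon bases, 11.1% overlap Rccd1 on the other strand.

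Smc2 and Smc4 are the paired ATPase subunits of condensin. Smc2 had a log2 change of -0.35 (limma adjusted p = 0.0834) and -0.23 without mouse 4, and Smc4 had -0.19 (adjusted p = 0.606) and -0.047. Among the genes that serve S phase, Rrm2, the small subunit of ribonucleotide reductase, had -0.28 (adjusted p = 0.0805) and -0.23, and Tyms, thymidylate synthase, had -0.16 (adjusted p = 0.657) and -0.058. The transcription factor Foxm1, an activator of mitotic genes, had -0.24 (adjusted p = 0.342) and -0.13. E2f1, an activator of genes of the G1 to S transition, had -0.063 (95% interval -0.28 to 0.15) and -0.095. None of these 6 passed the test with all mice, while without mouse 1 Smc2 (adjusted p = 0.00583) and Rrm2 (adjusted p = 0.0472) did.

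**Figure D3:**
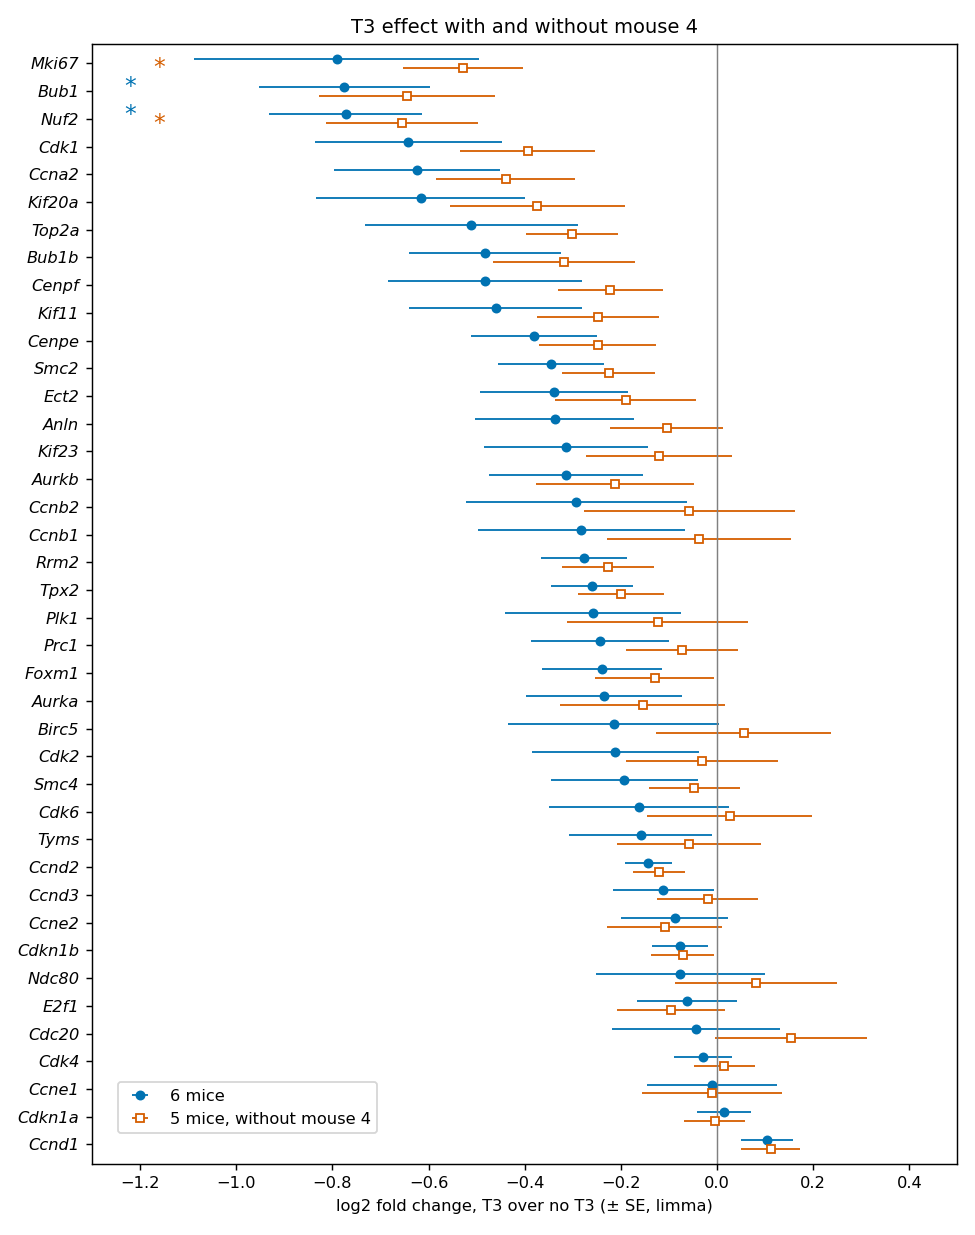
Fitted log2 change (x axis, T3 over no T3, ± SE from limma) of the 40 genes with all 6 mice (filled circles) and without mouse 4 (open squares), with asterisks in the matching colour where the adjusted p was under 0.05. The change was smaller in size without mouse 4 for 34 of the 40 genes, a count not taken over all genes, and Nuf2 carries both asterisks.

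Of the 40 genes, 2 D cyclins, Cdk4 and both inhibitors were the most abundant. Per kilobase of exon, Cdkn1a averaged 56.2 CPM in T3 cultures and 55.8 in no T3 cultures, Cdkn1b 32.1 and 33.9, Cdk4 29.5 and 30.2, Ccnd2 24.6 and 27.2, and Ccnd1 20.3 and 19.0. All other genes of the list were at or under 7.30 CPM per kilobase in T3 cultures and 8.44 in no T3 cultures, the level of Smc4. Bub1 was at 0.605 and 1.15, Nuf2 at 0.454 and 0.827, and Cdk6, the lowest, at 0.184 and 0.210. With mouse 4 left out of the no T3 mean, Smc4 was at 7.60, Bub1 at 0.95, Nuf2 at 0.764 and Cdk6 at 0.191 in no T3 cultures. Of the 40 genes, 23 averaged under 10 CPM, none was at 0 in any library, and the fewest reads behind a value were 5.

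Ccnd1, a D cyclin that growth signals induce, had 97.2, 90.7, 98.2, 106, 96.6 and 85.7 CPM in T3 cultures of mice 1 to 6, against 93.0, 93.0, 92.2, 101, 82.3 and 74.0 CPM in no T3 cultures. The groups overlapped, with the T3 culture higher in 5 of 6 mice. Its log2 change of 0.10 (95% interval -0.0089 to 0.22, limma adjusted p = 0.338) was 1 of 2 above 0 among the 40 genes, with Cdkn1a, and it was 0.11 without mouse 4. Of its exon bases, 23.4% overlap LTO1 on the opposite strand. Ccnd2, the main D cyclin of these cultures by level, had 255, 231, 202, 246, 228 and 225 CPM in T3 cultures, against 266, 261, 234, 294, 256 and 223 CPM in no T3 cultures. It was lower with T3 in 5 of 6 mice, and its log2 change of -0.14 (95% interval -0.25 to -0.04, adjusted p = 0.108) was -0.12 without mouse 4.

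Cdk4, the kinase partner of the D cyclins, had 94.6, 91.1, 103, 95.7, 94.9 and 95.3 CPM in T3 cultures of mice 1 to 6, against 105, 98.0, 93.0, 114, 90.1 and 88.2 CPM in no T3 cultures. Its log2 change was -0.029 (95% interval -0.15 to 0.095, limma adjusted p = 0.860) and 0.015 without mouse 4, and 19.7% of its exon bases overlap Tspan31 on the other strand. Cdkn1a, or p21, an inhibitor of these kinases under p53 control, had 173, 192, 224, 219.5, 196 and 194 CPM in T3 cultures, against 194, 212, 233, 203, 176 and 170.1 CPM in no T3 cultures. The T3 value was lower in mice 1 to 3 and higher in mice 4 to 6, and the log2 change was 0.014 (95% interval -0.10 to 0.13, adjusted p = 0.938), and -0.0053 without mouse 4. Cdkn1b, or p27, had 167, 159.5, 141, 137, 130.5 and 143 CPM in T3 cultures, against 154, 159, 168, 147, 158 and 138 CPM in no T3 cultures. Its log2 change was -0.077 (95% interval -0.20 to 0.043, adjusted p = 0.552), and -0.072 without mouse 4, and its groups overlapped like those of Cdk4 and Cdkn1a.

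The remaining 5 of these 10 genes were not called either. Ccnd3, the third D cyclin, had a log2 change of -0.11 (95% interval -0.33 to 0.11). The E cyclins, which start DNA synthesis with Cdk2, had -0.0095 for Ccne1 (-0.29 to 0.27) and -0.088 for Ccne2 (-0.32 to 0.14), of whose exon bases 17.4% overlap Ints8 on the other strand. Cdk2 had -0.21 (-0.58 to 0.15) and Cdk6, the second kinase of the D cyclins, -0.16 (-0.55 to 0.23), and without mouse 4 the 5 changes, in the order just given, were -0.019, -0.011, -0.11, -0.032 and 0.026. Their adjusted p ran from 0.601 to 0.986.

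The no T3 library of mouse 4 was the highest of all 12 for 34 of the 40 genes, against 9.49% of all genes. It was so for 29 of the 30 mitosis and S phase genes and for 5 of the 10 G1 and inhibitor genes. Set over the mean of the other 5 no T3 libraries, it stood at a median of 1.76 times, and between 0.879 and 3.42 times for single genes. The T3 library of the same mouse lay within the range of the other 5 T3 libraries for 32 of the 40 genes. The same share over all genes was not taken, so this count is a description only. Summed over the 30 genes, the T3 cultures of mice 1 to 6 had 352, 271, 264, 252, 257 and 226 CPM, against 346, 308, 279.8, 606, 357 and 302 CPM in the no T3 cultures. The sum was lower with T3 in 5 of 6 mice and slightly higher in mouse 1.

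Markers of other tissues moved with this library. Mural and meningeal markers, of which 9 of 10 were listed, summed to 63.5 to 227 CPM in the T3 libraries, while mouse 4 without T3 had 512 CPM and the other no T3 libraries 111 to 227 CPM. By limma, 1 of these 9 genes was called, Dcn, which encodes the matrix proteoglycan decorin. It fell by 0.47 on the log2 scale with T3 (adjusted p = 0.00806), lower in 6 of 6 mice, and by 0.38 without mouse 4 (adjusted p = 0.0492). Acta2, smooth muscle actin, was also lower in 6 of 6 mice without being called, at -0.58 (adjusted p = 0.289) and -0.39 without mouse 4 (adjusted p = 0.0541). Both genes were named after their values were seen. Over the 9 genes the median log2 change was -0.54, with 7 below 0, and without mouse 4 it was -0.061, with 5 below 0. Of all genes, 48.9% and 48.7% were below 0, and 2.14% and 1.68% were called lower. Pdgfrb went the other way, at 0.24 (adjusted p = 0.502) and 0.42 without mouse 4 (adjusted p = 0.142). Heart muscle markers, of which 4 of 12 were listed, summed to 62.7 to 80.6 CPM in T3 libraries, while mouse 4 without T3 had 1295 CPM and the other no T3 libraries 55.7 to 64.3 CPM. Outside that library of mouse 4, most of this sum was Ryr2 alone, at 52.2 to 77.6 CPM. Myh6, Myh7 and Ttn reached at most 1.19, 3.81 and 1.95 CPM there. Endothelial markers (4 of 7 listed) summed to 7.45 to 30.9 CPM in T3 libraries, while mouse 4 without T3 had 36.9 CPM and the other no T3 libraries 7.32 to 25.0 CPM. Microglial markers (5 of 7 listed) summed to 4.28 to 8.70 CPM in T3 libraries, while mouse 4 without T3 had 10.2 CPM and the other no T3 libraries 3.08 to 6.49 CPM. None of 7 red blood cell markers was listed. Every listed gene reached 1 CPM in at least 2 libraries. A marker that is not listed could thus still be present in the no T3 library of mouse 4 alone. The part of these cells in the levels of the 40 genes, in that library or in the others, was not tested. Without mouse 4, Nuf2 and Mki67 were lower with T3 in 5 of 5 mice and past the threshold, as given above.

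**Figure D4:**
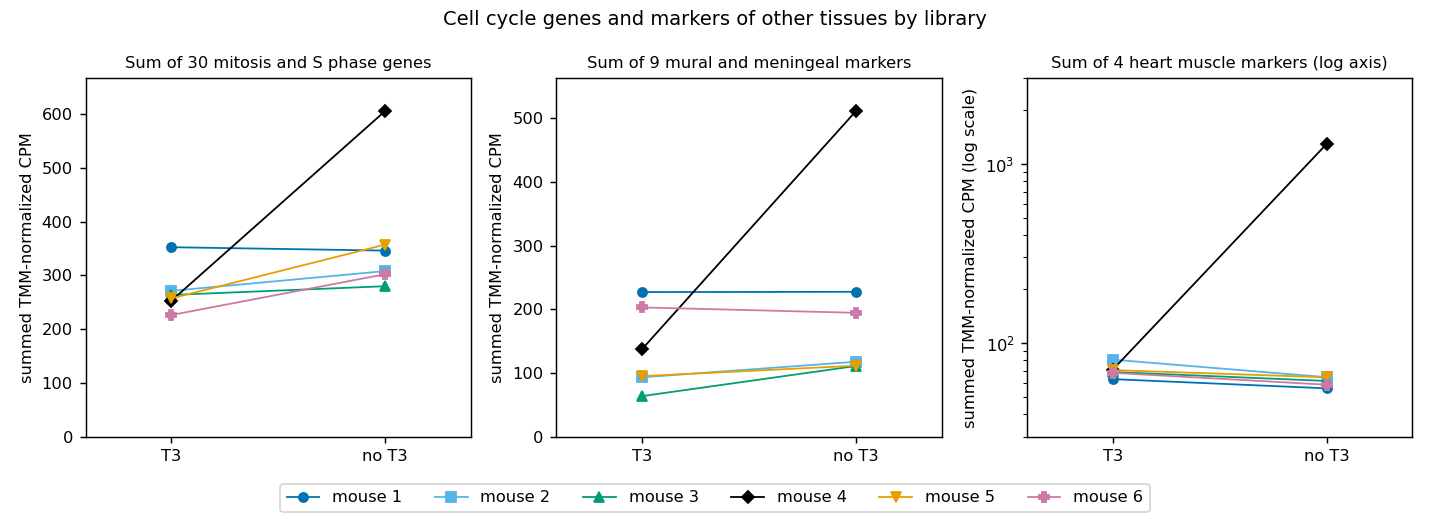
Summed TMM-normalized CPM of the 30 mitosis and S phase genes, of 9 mural and meningeal markers and, on a log axis, of 4 heart muscle markers in the T3 and no T3 cultures, with a line for each mouse. In all 3 panels the no T3 culture of mouse 4 is the highest point, at 606, 512 and 1295 CPM. In the other cultures most of the heart muscle sum is Ryr2.

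Cells that could divide in these cultures were also marked. Astrocyte markers summed to 1308 to 3426 CPM in T3 libraries, and to 859.9 to 2901 CPM in no T3 libraries, and 5 of the 8 rose with T3 by the limma test (4 without mouse 4). Oligodendrocyte precursors had 3 of 7 markers that rose and 1 that fell (2 and 1 without mouse 4), and of 8 neural progenitor markers tested 1 rose (none without mouse 4) and none fell. Of all genes, 3.37% were called higher and 2.14% lower, and without mouse 4 2.49% and 1.68%. The part of these cells in the changes of the 40 genes was not tested.

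A wider list of 122 other genes of kinetochore, spindle, condensin and cohesin, cyclins and E2F or Rb complexes was read from the same fit. Of its 115 genes tested, 8 fell with T3, none rose by limma, edgeR or DESeq2 (1 was higher at an unadjusted limma p under 0.05), and 92 (80%) had a log2 change below 0, with a median of -0.18; of all genes, 2.14% were called lower and 48.9% were below 0. Leaving out 1 mouse gave from 1 (without mouse 4) to 6 (without mouse 1 or 6) lower calls among them. The kinetochore genes Knl1, a scaffold for checkpoint proteins, and Ttk, the kinase Mps1, fell by 0.62 and 0.55 on the log2 scale (limma adjusted p = 0.0250 and 0.0352), 2 of 37 tested. Of 37 spindle and cytokinesis genes 4 fell: Pbk, a mitotic kinase, by 0.64 (adjusted p = 0.0151), Espl1, the protease separase, by 0.64 (0.0483), Ckap2l, a spindle protein, by 0.53 (0.0336), and Racgap1, the partner of Kif23 in centralspindlin, by 0.26 (0.0418). Rbl1, the pocket protein p107, fell by 0.64 (adjusted p = 0.0430), 1 of 16 E2F and Rb genes, and none of 11 condensin and cohesin genes was called by limma, with 4 lower at an unadjusted p under 0.05 and 1, Ncapg2, called by edgeR.

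Ccng2, an atypical cyclin linked to cell cycle exit, was the 1 of 14 other cyclins and inhibitors that fell, by 0.26 (adjusted p = 0.00736). It had 81.6, 73.4, 64.4, 71.3, 70.3 and 77.6 CPM in T3 cultures of mice 1 to 6, against 83.7, 87.2, 82.3, 86.3, 88.0 and 96.7 CPM in no T3 cultures. The groups did not overlap, and mouse 4 did not stand out. Without mouse 4, Ccng2 was the 1 gene of the 115 still called, at -0.25 (limma adjusted p = 0.0285), 83 (72.2%) of the 115 were below 0, and the median was -0.09; of all genes, 1.68% were then called lower and 48.7% were below 0. The log2 changes of the other 7 without mouse 4 were -0.56 for Ttk (adjusted p = 0.0612), -0.53 for Pbk (0.0628), -0.51 for Knl1 (0.0933) and -0.25 for Racgap1 (0.117). Rbl1 had -0.54 (adjusted p = 0.137), Ckap2l -0.35 (0.138) and Espl1 -0.46 (0.194). That of Ttk was no smaller than with all mice, those of Racgap1, Pbk, Knl1, Rbl1 and Espl1 were smaller by less than their SE with all mice, and that of Ckap2l by more. DESeq2 with all mice called Ccng2 alone of the 115. Of the Mcm genes, which encode the replicative helicase, 4 of 6 fell with T3 with all mice and 2, Mcm2 and Mcm6, without mouse 4. Of all genes, 2.14% were called lower with all mice and 1.68% without mouse 4. The median log2 changes of the 6 Mcm genes in mice 1 to 6 were -0.29, -0.17, -0.30, -0.75, -0.31 and -0.32. The no T3 library of mouse 4 was the highest of all 12 for 6 of these 6 genes, against 9.49% of all genes.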

How the data were processed

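RNA of 12 cultures was sequenced, per the labels' protocols, as single reads of 75 bases on a Genome Analyzer IIx from libraries of 500 ng total RNA made with a TruSeq RNA kit, which does not mark strand. Per the submitters' processing notes, the tools were Bowtie, TopHat, HTSeq and edgeR, with CASAVA and FastQC, and the build was GRCm38; no tool versions are given. The deposited signal is, per the file headers, counts per gene normalized by TMM, and its columns sum to 969044 to 1044783, so it was read as TMM-normalized CPM. Every value was a whole multiple of the value of 1 read (100% within 0.01 reads), which gave back 5272092 to 10837895 reads per library, the T3 library being the deeper one in 6 of 6 mice; 3 reads, the limit that a count of 0 allows, are worth 0.273 to 0.557 CPM and cover counting error only.

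T3 and no T3 cultures were compared with limma 3.58.1 in R 4.3.3 (trend, robust, two-sided) on log2(CPM + 0.5), with the mouse as a block, Benjamini-Hochberg adjustment over the 13663 genes that filterByExpr of edgeR 4.0.16 kept, and a threshold of 0.05. This scale understates changes of low genes. The pairing comes from the series' design, in which each fetus gave both cultures. Deviations of paired libraries correlated at 0.237 to 0.638, and those of T3 and no T3 libraries of different mice at 0.348 or less. Among the no T3 libraries, each T3 library matched that of its own mouse best. The reverse match was not checked. edgeR on the recovered reads called 782 genes and limma 754; DESeq2 1.42.0, other scalings, pseudocounts and filters, no block, and leaving out each mouse were alternatives, and edgeR without mouse 4 was chosen after seeing the data.

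The 40 genes and all lists were chosen with earlier results of these data known. Values in every culture are given for genes past the threshold with or without mouse 4 and, whatever their values, for Mki67, Top2a, Ccnb1, Cdk1, Ccnd1, Ccnd2, Cdk4, Cdkn1a and Cdkn1b; of other cell cycle lists, up to 4 called genes are named. Ccng2's per-culture values were added after they were seen. Symbols were found for 14648 of 14801 identifiers. Gene coordinates, exon lengths and overlaps come from GENCODE M21 on GRCm38, and promoters from RefSeq on GRCm38.p6. No pair of libraries of the same group agreed within sampling noise (chi-square per degree of freedom 2.41 to 18.1). Pairs of a T3 with a no T3 library were not examined in this way.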

Additional observations from a re-analysis of the deposited data

Results flagged for a closer look

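Of 80 groups of 6 cultures (40 genes, T3 and no T3), 19 had 1 culture far from the others by Dixon's criterion, where chance flags about 1 in 20. Of these, 13 were the no T3 culture of mouse 4, as the highest. It stood at 70.1 CPM for Mki67, 79.4 for Top2a, 66.1 for Smc4, 25.6 for Kif11 and 20.0 for Anln. It stood at 15.6 CPM for Ect2, 12.6 for Bub1b, 11.9 for Kif20a, and 9.46 for both Bub1 and Birc5. For the low genes Plk1, Ndc80 and Cdk6 it stood at 7.24, 5.01 and 4.27 CPM. The next highest no T3 cultures reached 30.9 CPM for Mki67, 47.9 for Top2a, 42.9 for Smc4 and 5.79 for Bub1b. This is the culture with heart muscle and connective tissue transcripts.

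In the T3 group, 5 of 6 such values were highs of mouse 1. They were 7.53 CPM for Cdk1, 4.29 for Birc5, 14.4 for Kif11, 9.61 for Anln and 27.7 for Smc2, where the next highest T3 cultures reached 9.19 CPM for Kif11 and 21.5 for Smc2. The other was a low of mouse 6, 4.25 CPM for Ccna2, with the other T3 cultures at 7.53 to 8.93 CPM.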

How the results depend on the processing

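Each of the 40 changes was recomputed under 14 alternatives, and of these 560 values 534 kept their direction and their side of the threshold. Only 2 of the 40 were called in the main fit, so a high count was likely beforehand and does not measure how firm the calls are. Of the rest, 13 changed sign, 10 gained a call and 3 lost it. The lost calls were Nuf2 without the block, and Bub1 without the block and without mouse 4. The adjusted p of Ccnb2 by DESeq2 was missing and was counted as uncalled. Without the replicate block for the mouse, 178 genes were called in place of 754. Of the 40, 0 were called in place of 2, and 12 were lower at an unadjusted p under 0.05. Of the 115 other cell cycle genes, 0 were called in place of 8, and 18 were lower at an unadjusted p under 0.05. The share of all genes lower at that p was not taken in this fit. The counts of 12 and 18 are thus a description only. Without the block, Nuf2 had a limma adjusted p of 0.11 and Bub1 of 0.138. Leaving out 1 mouse gave 459 (mouse 3) to 854 (mouse 1) genes in all, 2 to 6 of the 40 lower and none higher, 1 to 6 of the 115, and a median log2 change of the 40 between -0.323 (mouse 1) and -0.12 (mouse 4), against -0.259 with all mice. The 6 without mouse 1 were Bub1, Cenpe, Kif11, Nuf2, Rrm2 and Smc2; Kif20a was called without mouse 2 and Ccna2 without mouse 3. Of the 115, library total scaling called 5 and DESeq2 1 (its adjusted p was missing for 14), and edgeR without mouse 4, chosen after seeing the data, called 2, and of the 40 Nuf2 and Mki67. Signs that turned were all of uncalled genes. Over the mice left out, the log2 change ran from -0.0387 to 0.0145 for Ccne1 (0.00345 without mouse 3, 0.00857 without mouse 6), from -0.0637 to 0.0149 for Cdk4, from -0.258 to 0.0262 for Cdk6, from -0.021 to 0.0506 for Cdkn1a (-0.0137 without mouse 5, -0.00526 without mouse 4), from -0.177 to 0.0819 for Ndc80, from -0.139 to 0.154 for Cdc20 (0.00797 without mouse 5), from -0.398 to 0.0551 for Birc5 and from -0.0987 to 0.0207 for E2f1. Depth limits the low genes most: Bub1 and Nuf2 rest on 16 to 51 reads per library. The causes of these shifts were not tested.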

Other observations

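Leaving aside the no T3 culture of mouse 4, the highest of the other 11 libraries was the no T3 culture of mouse 1 for 11 of the 40 genes, the T3 culture of mouse 1 for 10 and the no T3 culture of mouse 5 for 8. Among the 6 T3 cultures, that of mouse 1 was the highest for 29 of the 40 genes and that of mouse 6 the lowest for 17. The same counts over all genes were not taken, so these are a description only.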
